A study of Mus musculus with 8 samples.

Results

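The intermediate filament and lamin genes of C2C12 muscle cells were Des, Vim, Nes, Synm, Plec, Lmna, Lmnb1, Lmnb2, Krt8 and Krt18, 10 genes that were set by name. A probe was taken for one of them where the platform annotation gave that gene and no other. This found 19 probes for 8 of the 10 genes, out of 31769 probes on the array, and 17 of the 19 carried a value on at least 1 array. Those 17 probes belonged to 6 genes, Des, Vim, Nes, Plec, Lmna and Lmnb1, and all 6 passed the filter of at least 3 values in each group. The probes for Krt8 and Krt18 were listed without a value on all 8 arrays. Synm and Lmnb2 were named by no probe of the annotation and were not analysed here.

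C2C12 is an established line of mouse myoblasts, muscle precursor cells that fuse into myotubes once serum is lowered. The 4 HDAC4 samples came from cells stably selected with a retrovirus that encodes HDAC4 together with Neo, and the 4 Neo samples from cells selected with a retrovirus that encodes Neo alone. Cells of both groups were grown to 90% confluence and then kept in 2% horse serum for 4 days. HDAC4, a histone deacetylase of class IIa, binds MEF2, a transcription factor of muscle genes, and the comparison asks which transcripts differ when cells carry the HDAC4 virus. Each array held RNA of the cells in the Cy5 channel and a common murine reference RNA, named as liver in a protocol, in the Cy3 channel. Whether the arrays of a group stand for separate cultures, and whether the selected cells were a pool or a clone, is not stated in the labels, so every p-value rests on a spread between arrays that may be technical. No probe was named for Hdac4, so the group labels could not be checked against the gene that the virus carries.

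Intermediate filaments are rope-like polymers of coiled-coil proteins that give cells and nuclei their mechanical strength. In muscle, desmin filaments encircle the Z-discs and tie myofibrils to each other, to mitochondria and to the membrane, and mutations of desmin cause myofibrillar myopathy. Myoblasts carry vimentin and nestin filaments, which desmin joins and largely replaces as fibres mature, while the lamins line the inside of the nuclear envelope, where mutations of lamin A/C cause muscular dystrophy.

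Values are log2 ratios of the cells over the common reference, each array centred on its median. A ratio compares samples for 1 probe and does not rank genes by abundance. That the ratio runs as cells over reference is likely and not stated, and the sign of each value below rests on it. Its basis is the dyes together with muscle genes such as Ckm, which lay far above 0 on all arrays. About 10.0% of all values had the form of a reference signal set to a minimum of 10 units, here called values at the reference floor. This floor was inferred from the values, and a ratio at the floor follows the signal of the cells alone and may understate their excess over the reference. Of the 116 values of the filament and lamin probes, 16 were at the floor, 6 of them from the Des probe.

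The arrays numbered 1 in both groups stood apart from the other 6. Over the 14746 probes with a value on all arrays, their correlation with each other was 0.945, the highest of either with one of the other arrays was 0.909, and the lowest among those other arrays was 0.936. The number of probes with a value lay between 17014 and 18521 on the HDAC4 arrays and between 19248 and 22193 on the Neo arrays. All 7 tested muscle markers lay above the reference on all arrays. Their median log2 ratio lay between 7.83 and 8.53 in HDAC4 cells and between 7.53 and 8.51 in Neo cells. In HDAC4 cells 2 of the 7 were fitted higher and 5 lower, with a median change of -0.24, and 0 passed. Actn2 was 0.67 on HDAC4 replicate 2, against 6.45 to 6.99 on the other HDAC4 arrays and 7.47 to 7.78 on the Neo arrays. Nearly all values of these markers were at the reference floor, among them all 8 of Actn2. Of 7 epithelial markers 5 had a value on some array and 2 were tested, while Cldn4 and Cldn7 had none, as was the case for Krt8 and Krt18, the keratin pair of simple epithelia, and for 7072 of all probes. Epcam averaged -4.73 ± 0.30 in HDAC4 cells and -4.51 ± 0.34 in Neo cells, and Krt7 -0.99 ± 0.10 in HDAC4 cells and -1.09 ± 0.45 in Neo cells (SD, n = 4 each). Of 9 hepatocyte markers 5 had a value on some array and 1 was tested, while Fgb, Cyp2e1 and Tat had none. The tested marker, Ahsg, lay above the reference, at 0.41 ± 0.27 in HDAC4 cells and 0.62 ± 0.25 in Neo cells (SD, n = 3 each). At the reference floor were 3 of its 6 values. Whether the reference was liver RNA was not tested, so values below it are not to be read as below liver.

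The RefSeq promoter table (build GRCm38.p6) held an entry for 8 of the 10 genes. The 250 bases before the start of Des and of Vim, the muscle-restricted and the mesenchymal member of one filament class, are shown to set a muscle filament gene beside a general one in the same comparison. The letters searched, on both strands, were the E-box CANNTG that myogenic factors read, the MEF2-type sequence CTANNNNTAG, the TATA box TATAAA and the CCAAT box CCAAT. Capitals mark the E-boxes in Des and the TATA and CCAAT boxes in Vim; a CCAAT box on the other strand reads ATTGG.
Des, chr1:75360042-75360291, + strand: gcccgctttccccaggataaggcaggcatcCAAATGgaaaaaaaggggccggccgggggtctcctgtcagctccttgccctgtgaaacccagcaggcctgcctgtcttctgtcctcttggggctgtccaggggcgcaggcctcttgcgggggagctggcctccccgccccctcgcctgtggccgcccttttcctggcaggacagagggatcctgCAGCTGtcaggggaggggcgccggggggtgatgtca
Vim, chr2:13574061-13574310, + strand: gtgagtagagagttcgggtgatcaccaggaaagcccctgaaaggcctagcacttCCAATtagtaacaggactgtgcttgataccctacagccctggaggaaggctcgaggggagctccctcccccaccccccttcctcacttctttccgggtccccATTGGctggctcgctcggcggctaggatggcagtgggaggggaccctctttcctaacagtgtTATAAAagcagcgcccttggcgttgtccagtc

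The Des window held 2 E-boxes, which began 220 and 36 bases before the start, and no TATA or CCAAT box. The Vim window held no E-box, a TATA box 32 bases before the start and 2 CCAAT boxes, at 196 and 94 bases. Neither held the MEF2-type letters. Over all 32851 promoter entries, 66.2% held an E-box, 3.20% the MEF2-type letters, 12.4% the TATA box and 33.8% the CCAAT box. These are matches of letters in short windows and not sites shown to be bound.

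None of the 6 measured genes passed the test between HDAC4 and Neo cells. In limma 0 of 6 passed an adjusted p of 0.05 in either direction, 0 of 6 had an unadjusted p under 0.05, and in 0 of 6 did the 2 groups fail to overlap. Over all 14750 features tested, 0.115% passed the adjusted threshold (0.00678% higher and 0.108% lower in HDAC4 cells), 7.34% had an unadjusted p under 0.05 and 5.32% had groups that did not overlap, so counts of 0 among 6 genes lie near the background. The fitted change was above 0 in 4 genes and below 0 in 2, with a median log2 change of 0.04 against -0.0028 over all features. The median size of the change, regardless of sign, was 0.05 in the 6 genes and 0.14 over all features. Adjusted p lay between 0.934 and 0.998.

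Desmin, the filament protein of the muscle cytoplasm, gave log2 ratios of 6.17, 6.82, 6.91 and 7.07 in HDAC4 replicates 1 to 4, against 6.60, 6.78, 6.92 and 6.58 in Neo replicates 1 to 4. The HDAC4 array numbered 1 was the lowest and the HDAC4 array numbered 4 the highest of the 8, and the groups overlapped. The means were 6.74 ± 0.39 in HDAC4 cells and 6.72 ± 0.16 in Neo cells (SD, n = 4 each). The log2 change was 0.02 ± 0.20 (SE; limma adjusted p = 0.993), a ratio of HDAC4 to Neo of 1.02 with a 95% interval of 0.745 to 1.39. All 4 HDAC4 values and 2 of the 4 Neo values were at the reference floor. For comparison, 206 probes of other genes were at the floor on every array, and their median change was -0.55, with 90.3% of them lower in HDAC4 cells. Whether that shift came from the arrays or from the transcripts of the cells was not tested. With the shift taken out of every HDAC4 value at the floor, the change of Des was 0.57 (limma unadjusted p = 0.0179, adjusted p = 0.574). Nearly all of that value is the correction itself, which moved all 4 HDAC4 values of Des by the same amount and no Neo value. Before it the change was 0.02, so the p-value of the corrected fit is not evidence of higher Des.

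Vimentin, the filament protein of mesenchymal cells and myoblasts, lay below the reference on replicates 2 to 4 of both groups and near its level on the arrays numbered 1. Its log2 ratios were -0.06, -0.89, -0.98 and -0.98 in HDAC4 replicates 1 to 4, against -0.01, -0.80, -0.77 and -1.31 in Neo replicates 1 to 4. In each group the array numbered 1 was highest by a wide margin, and the other 3 HDAC4 values lay within the wider range of the other 3 Neo values. The means were -0.73 ± 0.45 in HDAC4 cells and -0.72 ± 0.54 in Neo cells (SD, n = 4 each). The change was -0.0041 ± 0.30 (SE; limma adjusted p = 0.998), with a 95% interval for the ratio of 0.629 to 1.58. No Vim value was at the floor. Between the arrays numbered 1 HDAC4 minus Neo was -0.05, and over replicates 2 to 4 it was 0.01.

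Nestin, a large filament protein of myoblasts and young myotubes that needs a partner such as desmin or vimentin to assemble, gave 4.999, 3.80, 3.49 and 3.83 in HDAC4 replicates 1 to 4, against 4.31, 3.83, 3.81 and 4.33 in Neo replicates 1 to 4. The HDAC4 array numbered 1 was the highest of the 8, while the other 3 HDAC4 arrays lay at the level of the lower pair of Neo arrays or below it. The means were 4.03 ± 0.66 in HDAC4 cells and 4.07 ± 0.29 in Neo cells (SD, n = 4 each). At the reference floor were 1 HDAC4 and 1 Neo value of Nes. The change was -0.04 ± 0.31 (SE; limma adjusted p = 0.991), with a 95% interval for the ratio of 0.603 to 1.57. Its direction turned with the array number: HDAC4 minus Neo was 0.69 for the arrays numbered 1 and -0.28 over replicates 2 to 4. Without HDAC4 replicate 1 the change was -0.36 (adjusted p = 0.423).

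**Figure D1:**
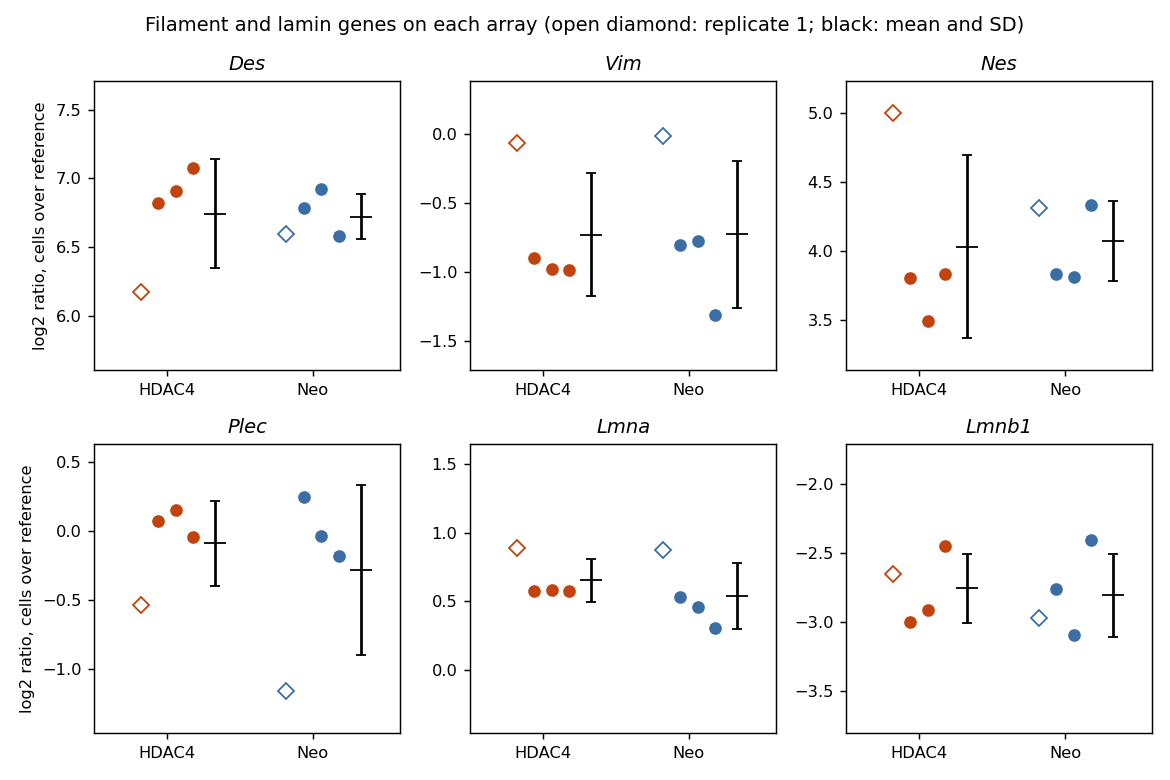
Log2 ratio of cells over reference (vertical axis, every panel spans the same range) for the 6 measured genes on the 4 HDAC4 and 4 Neo arrays. Open diamonds are the arrays numbered 1, filled circles are replicates 2 to 4 from left to right, and black marks are the mean and SD. The groups overlapped for all 6 genes, and the diamonds lay above the circles for Vim and Lmna and below them for Plec.

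Lamins of the A type, the products of Lmna, were measured by 3 probes, all with a value on every array and none at the floor. The gene value was 0.89, 0.58, 0.58 and 0.58 in HDAC4 replicates 1 to 4, against 0.87, 0.53, 0.46 and 0.31 in Neo replicates 1 to 4. Replicates 2 to 4 of HDAC4 lay above replicates 2 to 4 of Neo by 0.15 on average, and the arrays numbered 1 differed by 0.02. The means were 0.66 ± 0.16 in HDAC4 cells and 0.54 ± 0.24 in Neo cells (SD, n = 4 each), a change of 0.11 ± 0.16 (SE; limma adjusted p = 0.934) with a ratio of 1.08 and a 95% interval of 0.850 to 1.38. This was the narrowest interval of the 6 genes.

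The Lmna probes did not all move alike. M200001331 and M300005919 gave changes of 0.19 ± 0.21 and 0.20 ± 0.15 (SE), and M300005920 gave -0.05 ± 0.17 (SE), with adjusted p between 0.888 and 0.977 when each probe was tested on its own. M300005919 lay between 0.82 and 0.98 on the HDAC4 arrays and between 0.42 and 1.02 on the Neo arrays. Its spread was therefore smaller in HDAC4 cells (SD 0.07) than in Neo cells (SD 0.25, n = 4 each), a difference that was not tested. Which part of the transcript each probe reads was not looked at here.

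Lamin B1, the product of Lmnb1 and a lamin that cells tend to lose when they stop dividing, lay far below the reference. Its log2 ratios were -2.65, -3.001, -2.91 and -2.45 in HDAC4 replicates 1 to 4, against -2.97, -2.76, -3.09 and -2.40 in Neo replicates 1 to 4. The arrays numbered 4 were the highest of each group, and the ranges were almost the same. The means were -2.75 ± 0.25 in HDAC4 cells and -2.81 ± 0.30 in Neo cells (SD, n = 4 each), a change of 0.05 ± 0.19 (SE; limma adjusted p = 0.973) and a ratio of 1.04 with a 95% interval of 0.774 to 1.39. Of the markers of dividing cells, 8 were tested and 0 passed, with 7 fitted higher and 1 lower in HDAC4 cells and a median change of 0.24. In bulk RNA, fewer cells of a type and less RNA per cell cannot be told apart.

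Plectin, the giant linker that ties desmin filaments to Z-discs, mitochondria and the membrane, was measured by 10 probes. The gene value was -0.53, 0.07, 0.16 and -0.04 in HDAC4 replicates 1 to 4, against -1.16, 0.25, -0.03 and -0.18 in Neo replicates 1 to 4. The Neo array numbered 1 was by far the lowest, followed by the HDAC4 array numbered 1, and the other 6 arrays of the 2 groups overlapped. The change was 0.20 ± 0.29 (SE; limma adjusted p = 0.940), a ratio of 1.14 with a 95% interval of 0.726 to 1.81. The mean over probes depends on which probes have a value: M300003379 and M300003380 had 3 and 2 Neo values and no HDAC4 value. With each probe centred on its own mean before averaging, the change was 0.30 (adjusted p = 0.896).

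Of the 10 Plec probes 6 had a value on all arrays, and 5 of the 6 gave a change above 0. The 6 changes ran from -0.06 ± 0.33 for M300003376 to 0.68 ± 0.51 for M300003382 (SE), and with each probe tested on its own, 0 of the 13 filament and lamin probes passed (lowest limma adjusted p = 0.770) and 0 had an unadjusted p under 0.05, against 0.125% and 7.03% of all probes. M300003382 stood at -1.79, 0.01, -0.22 and -0.21 in HDAC4 replicates 1 to 4, against -2.63, -0.64, -0.73 and -0.94 in Neo replicates 1 to 4. Every HDAC4 array lay above the Neo array of the same number, by 0.84 for the arrays numbered 1 and by 0.63 on average over replicates 2 to 4. With the arrays numbered 1 as a batch term, a fit on probes added after the data were seen, its change of 0.68 ± 0.12 (SE) passed in limma (adjusted p = 0.0468), 1 of the 13 tested filament and lamin probes, where 0.645% of all probes passed. M300003381 had a change of 0.38 and an adjusted p of 0.412 in that fit, and the other 4 Plec probes had adjusted p between 0.464 and 0.927. The single call is of 1 probe among 6 for the gene and just inside the threshold, and the gene value did not pass in the fit of gene values with that term (adjusted p = 0.604).

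**Figure D2:**
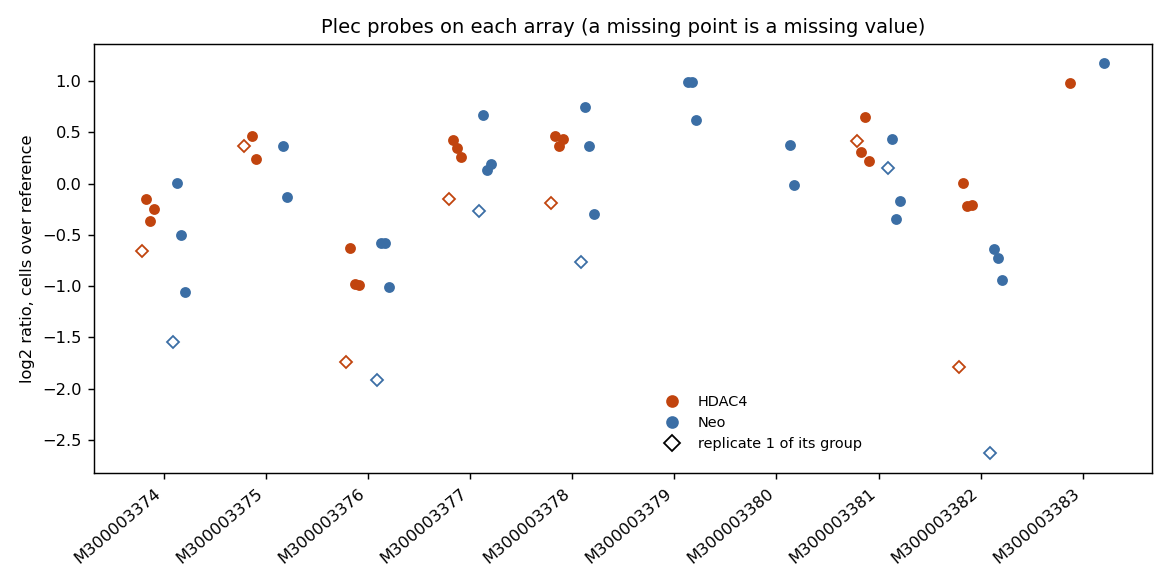
Log2 ratio of cells over reference (vertical axis) for the 10 Plec probes on the HDAC4 and Neo arrays, with open diamonds for the arrays numbered 1. M300003379 and M300003380 had Neo values alone, and for M300003382 the diamonds lay at -1.79 and -2.63, far below the other arrays.

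**Figure D3:**
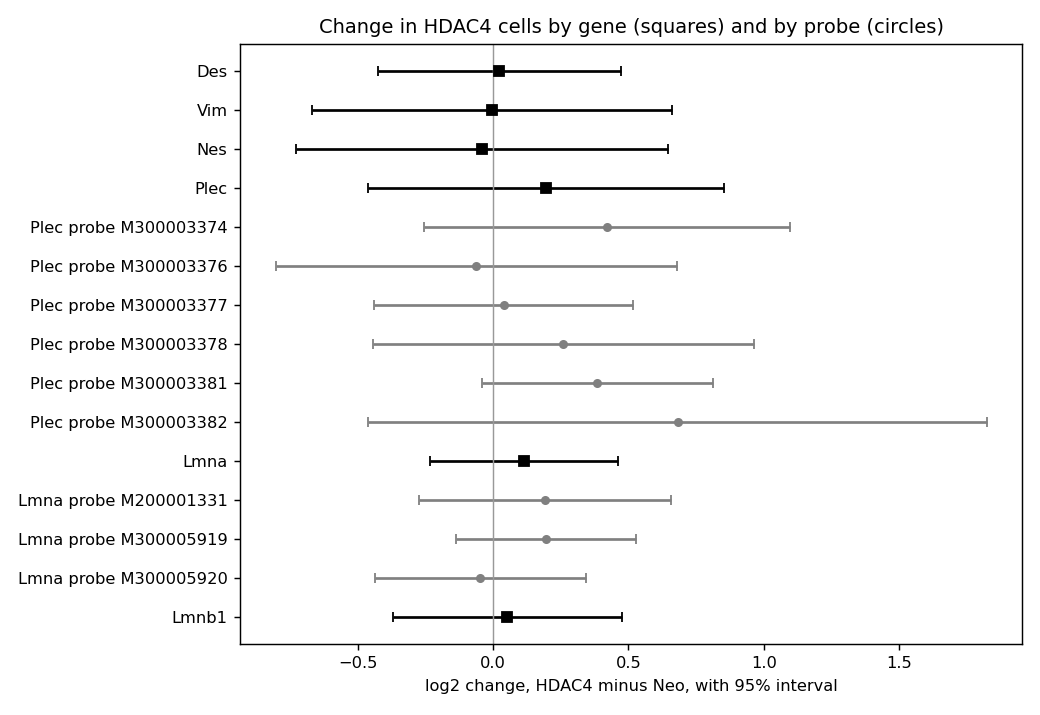
Log2 change, HDAC4 minus Neo, with its 95% interval (horizontal axis) for each of the 6 genes (squares) and, for Plec and Lmna, each tested probe (circles), from the fits without a batch term. All intervals include 0, and the widest is that of Plec probe M300003382.

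The precision of these comparisons differed by gene. Over the 6 genes the 95% intervals of the log2 change reached from -0.73 at the lowest to 0.85 at the highest, so in this fit a change of 2-fold in either direction lies outside the interval of each gene value. For Des this limit depends on the floor: with the floor offset removed, its interval reached from 0.12 to 1.02 and takes in 2-fold higher. The position of that interval comes almost wholly from the correction, which moved every HDAC4 value of Des. The spread between arrays of a group was 0.20 for Lmna, 0.28 for Lmnb1, 0.30 for Des, 0.49 for Plec and for Vim and 0.51 for Nes, and for the last 3 it exceeded that of 87.1% or more of the tested features. With the arrays numbered 1 left out it was 0.08 for Lmna, 0.15 for Des, 0.17 for Plec, 0.22 for Vim and 0.25 for Nes, and 0.32 for Lmnb1.

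The arrays numbered 1 differed from the others in 4 of the 6 genes. In the limma fit with a term for the arrays numbered 1 beside the term for the virus, Vim, Nes and Lmna were higher and Plec was lower on the arrays numbered 1 than on the other 6 at an adjusted p under 0.05. Of all features 20.2% passed, 9.89% higher and 10.3% lower. The labels give nothing that sets these arrays apart except the number. The median size of the difference was 0.63 in the 6 genes and 0.29 over all features.

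Vim averaged -0.04 on the arrays numbered 1 and -0.96 on the other 6, a difference of 0.92 ± 0.16 (SE; limma adjusted p = 0.0082). Plec averaged -0.85 on the arrays numbered 1 and 0.04 on the other 6, a difference of -0.89 ± 0.17 (SE; adjusted p = 0.0118). Nes averaged 4.66 on the arrays numbered 1 and 3.85 on the other 6, a difference of 0.81 ± 0.24 (SE; adjusted p = 0.0465). For Vim, Plec and Lmna the arrays numbered 1 did not overlap with the other 6, as was the case for 34.0% of features. For Nes the Neo array numbered 4 lay above the Neo array numbered 1.

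Lmna differed by less, with 0.88 on the arrays numbered 1 and 0.50 on the other 6 (difference 0.38 ± 0.11, SE; limma adjusted p = 0.0465). Des averaged 6.39 on the arrays numbered 1 and 6.85 on the other 6, a difference of -0.46 ± 0.17 (SE) that did not pass (adjusted p = 0.0830). Lmnb1 averaged -2.81 on the arrays numbered 1 and -2.77 on the other 6 (difference -0.04 ± 0.22, SE; adjusted p = 0.913).

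Within Plec the difference by array number was uneven. M300003382 differed by -1.76 ± 0.13 and M300003376 by -1.04 ± 0.17 (SE), while M300003381 differed by 0.10 ± 0.21 (SE), with limma adjusted p of 0.000607, 0.00713 and 0.761. Of the Lmna probes, M200001331 differed by 0.58 ± 0.13 (SE; adjusted p = 0.0207) and M300005919 by 0.19 ± 0.15 (SE; adjusted p = 0.392). Over all probes tested singly 21.4% passed.

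Markers of dividing cells moved with the array number too. Of 8 tested, 6 were higher on the arrays numbered 1 and 0 lower at an adjusted p under 0.05, with a median difference of 0.85, where 9.89% of all features were higher and 10.3% lower. Their median log2 ratio lay at -2.93 and -2.36 on those 2 arrays and between -3.98 and -3.50 on the other 6. Of 7 muscle markers 1 was higher and 1 lower, and of 5 fibroblast markers 0 were higher and 1 lower, counts near the 20.2% of all features called in either direction. The part of these markers in the differences of Vim, Nes, Plec and Lmna was not tested.

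**Figure D4:**
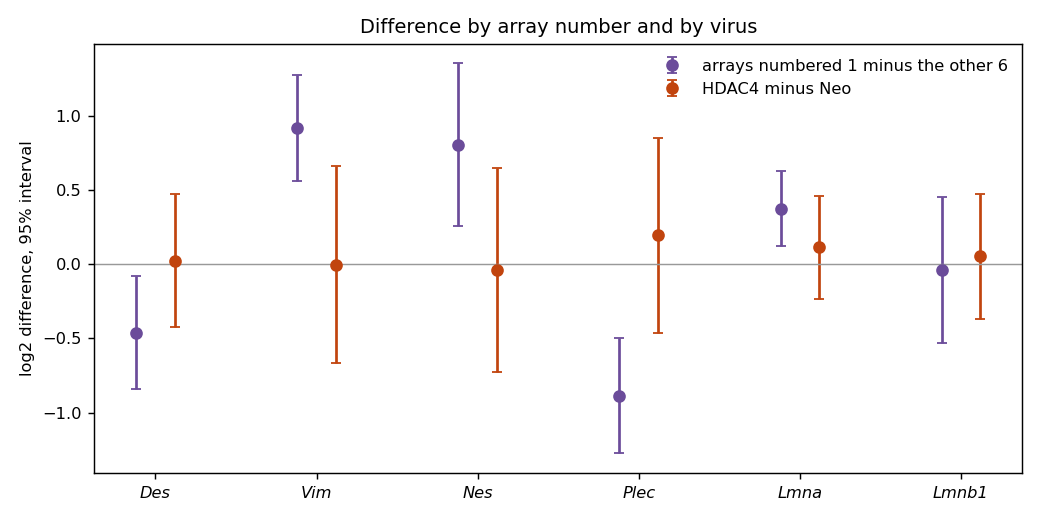
Log2 difference with its 95% interval (vertical axis) for the 6 measured genes, between the arrays numbered 1 and the other 6 (purple) and between HDAC4 and Neo (orange). The purple intervals exclude 0 for all genes but Lmnb1, and the orange ones include 0 for all 6 genes.

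The other genes of the filament and lamin systems were described through 6 lists with 72 genes in all. Of these, 47 were tested, 0 passed over all features in limma and 3 had an unadjusted p under 0.05, against 7.34% of all features. The fitted change was above 0 in 22 and below 0 in 25, with a median of -0.05. Among the 47, the groups did not overlap for Syne2, Bag3, Cdk5 and Casp6, where 5.32% of all features had such groups. The number that passed was also 0 with the arrays numbered 1 as a batch, where 0.624% of all features passed, and 0 with a block for the replicate number, where 0.061% passed.

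Among the nuclear envelope partners of lamins, 13 of 17 genes were tested, with 8 fitted higher and 5 lower. Syne2, which codes for a nesprin that links the nuclear envelope to the cytoskeleton, stood at -3.27, -2.79, -3.23 and -2.88 in HDAC4 replicates 1 to 4, against -1.88, -1.87, -2.38 and -2.61 in Neo replicates 1 to 4. The groups did not overlap, and the change was -0.85 ± 0.21 (SE; limma adjusted p = 0.269). The 2 Syne2 probes with a value on all arrays gave changes of -0.09 and -0.30, a probe with 3 values in each group gave -1.87, and 1 probe had 2 Neo values and no HDAC4 value. With probes centred first the change of the gene was -0.57 (adjusted p = 0.634).

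Mlip, which codes for a muscle protein that binds lamin A/C, had a change of -0.45 ± 0.17 (SE; limma adjusted p = 0.598) as the mean of 3 probes. Its probe M200007693 gave 1.43, 1.31, 1.78 and 1.30 in HDAC4 replicates 1 to 4, against 2.50, 2.78, 2.42 and 2.74 in Neo replicates 1 to 4. The groups did not overlap, and the HDAC4 arrays lay below every Neo array. Tested on its own, the probe fell by 1.16 on the log2 scale, a ratio of 0.449 with a 95% interval of 0.352 to 0.573 (limma adjusted p = 0.0333), 1 of 70 tested probes of the 6 lists, where 0.125% of all probes passed. It was singled out after its values were seen. The difference was -1.07 between the arrays numbered 1 and -1.18 over replicates 2 to 4. All 8 of its values were at the floor, where the 206 probes above had a median change of -0.55, and the other 2 Mlip probes gave -0.15 and 0.14.

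Among chaperones and partners of desmin, 7 of 8 genes were tested, with 2 fitted higher and 5 lower. Bag3, a co-chaperone that clears damaged Z-disc and filament proteins and whose mutation causes myofibrillar myopathy, stood at 1.10, 1.29, 1.31 and 1.26 in HDAC4 replicates 1 to 4, against 0.73, 0.79, 0.76 and 0.83 in Neo replicates 1 to 4. Every HDAC4 value lay above every Neo value, and the replicate spread was small. Groups without overlap were found for 5.32% of all features. The change of 0.46 ± 0.11 (SE) did not pass over all features (limma adjusted p = 0.286, exact permutation p = 0.0286, the smallest that 4 against 4 arrays allow). No Bag3 value was at the floor, and the adjusted p was 0.0702 with the arrays numbered 1 as a batch. Mtm1, the myotubularin that binds desmin, had a change of -0.41 ± 0.20 (SE; limma adjusted p = 0.743).

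The other lists held smaller differences relative to their errors. Of the 20 other intermediate filament genes 8 were tested, 4 fitted higher and 4 lower. Sync, which codes for the muscle filament protein syncoilin, had a change of 0.89 ± 0.56 (SE; limma adjusted p = 0.834), and -0.02 with its 2 probes centred first, since 1 of them had 2 HDAC4 values against 4 Neo values. The lens filament gene Bfsp1 had a change of 0.63 ± 0.51 (SE; adjusted p = 0.880). Of 13 plakin linkers and anchors 8 were tested, 1 fitted higher and 7 lower, led by Dtna, a dystrobrevin that binds syncoilin and synemin, at -0.40 ± 0.32 (SE; adjusted p = 0.878), and the spectraplakin Macf1 at -0.19 ± 0.21 (SE).

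Of 6 lamin processing genes 5 were tested, 3 fitted higher and 2 lower, with Narf, a prelamin A binding protein, at -0.37 ± 0.23 (SE; limma adjusted p = 0.825) and the farnesyltransferase subunit Fnta at -0.11 ± 0.13 (SE). Of 8 kinases and caspases that act on filaments or lamins 6 were tested, 4 fitted higher and 2 lower. Casp6, the caspase that cuts lamin A, had a change of -0.18 ± 0.11 (SE; adjusted p = 0.838) with groups that did not overlap, and the mitotic kinase Plk1 had one of 0.32 ± 0.21 (SE; adjusted p = 0.844).

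Genes with the most similar pattern over the 8 arrays were taken by Pearson's r among 7928 named genes with a value on every array. For Des they were Ift57, Hmox2 and Apoe (r of 0.96, 0.95 and 0.95). For Vim they were Anp32a, Nras and Sec11a (0.99 each), and for Lmna Tmem223, Rrm2 and Snx3 (0.99, 0.99 and 0.98). All such r share the offset of the arrays numbered 1. Over the other 6 arrays they were 0.88, 0.82 and 0.82 for Des, 0.95, 0.94 and 0.97 for Vim, and 0.96 each for Lmna. With 8 points and 7928 genes searched, values of this size are a description of these arrays.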

How the data were processed

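The deposited values are log2 ratios of 31769 probes on 8 arrays. Total RNA of the cells (10 µg after DNase) was labelled directly with Cy5 from oligo dT primers and the reference with Cy3, without a dye swap, per the labels' protocols. What the authors did for background, normalization and filtering, and why values are missing, was not stated in the sources used. The array medians, 0.0058 to 0.029 as deposited, were near 0 already.

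Probes were named from the platform annotation, which gave 18976 probes 1 gene and 404 several. After centring the arrays on their medians, the probes of a gene were averaged and unnamed probes kept as they were. Features with at least 3 values per group (14750) were fitted with limma 3.58.1 in R 4.3.3 (lmFit, eBayes; Benjamini-Hochberg over all features, threshold 0.05), as 4 HDAC4 against 4 Neo arrays without a block. Single genes had an exact two-sided permutation test (scipy 1.17.1). A value counted as at the floor where 10 times its ratio was a whole number of at least 10 within 0.001. The number of arrays limits the precision. On simulated data, limma recovered 60% of features changed by 1 on the log2 scale and 96% of those changed by 2. It also called 8 unchanged features. The simulated noise was independent between arrays, with no shared shift of the arrays numbered 1 and no floor offset. These shares may therefore differ in the real comparison.

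Same-numbered arrays were checked for pairing by the correlation of their deviations from group means, which was 0.52, 0.30, 0.19 and 0.11 for replicates 1 to 4. All lay above the preset 0.1, so the arrays were treated as paired by number in that alternative, although HDAC4 replicates 3 and 4 correlated better with Neo replicate 2 (0.21 and 0.25). The arrays numbered 1 pull both group means, so replicates 2 to 4 can correlate whatever their number. For those replicates the check therefore cannot show pairing. With the number as a block 9 features passed, 7 of them among the 17 that passed without it.

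The genes, lists, tests and alternatives were chosen with earlier results of these data known. Every filament and lamin gene is named, as are the 2 genes of each list with the smallest p and, for Des, Vim and Lmna, the 3 genes with the highest r.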

Additional observations from a re-analysis of the deposited data

Results flagged for a closer look

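In 5 of 30 groups of 4 values examined for the filament and lamin genes and the single probes of Plec and Lmna, 1 array lay far from the other 3, where chance gives about 1 in 20. All 5 were arrays numbered 1. Vim on HDAC4 replicate 1 (-0.063) and Lmna on HDAC4 replicate 1 (0.89) lay above the other HDAC4 arrays. The Plec probes M300003378 (-0.19) and M300003382 (-1.79) on HDAC4 replicate 1, and M300003382 on Neo replicate 1 (-2.63), lay below the others of their group. The genes and their probes share values, so these 5 are not independent.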

How the results depend on the processing

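Of the 24 alternatives, 3 of them chosen after seeing the data, 23 gave 0 calls among the filament and lamin genes or probes, and testing each probe with the arrays numbered 1 as a batch gave 1 (Plec probe M300003382). Over gene values the lowest adjusted p was 0.161 (Des, batch and floor offset together). The median change stayed between 0.02 and 0.11, and Lmna kept its direction in all 22 alternatives that gave it a value.

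The 17 features that passed over the whole array became 0 with the floor offset removed (1074 at an unadjusted p under 0.05 in limma), 1 with values at the floor left out, 9 with the replicate block, 92 with the arrays numbered 1 as a batch (44 with the floor offset removed too, 95 with probes centred, 108 by probe), 305 without both arrays numbered 1 and 426 with array quality weights. Leaving out 1 array gave 0 to 65: 62, 3, 4 and 2 without HDAC4 replicates 1 to 4, and 65, 0, 0 and 0 without Neo replicates 1 to 4 (838, 877 and 861 features at an unadjusted p under 0.05 for the 3 counts of 0). The cause was not tested.

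Changes near 0 turned sign without passing. Quantile normalization gave 0.015 for Vim, 0.012 for Nes and -0.058 for Lmnb1. Nes was 0.096 with the floor offset removed, also with the batch, and 0.059 with floor values left out. Without both arrays numbered 1, Vim was 0.011 and Lmnb1 -0.036. With 1 array left out, the ranges were -0.087 to 0.21 for Des, -0.23 to 0.23 for Vim, -0.36 to 0.14 for Nes, -0.10 to 0.37 for Plec, 0.03 to 0.22 for Lmna and -0.048 to 0.19 for Lmnb1. The Plec change was -0.10 without Neo replicate 1. With the replicate number as a block, the lowest adjusted p of the 6 genes was 0.664, so none of them was called with or without it. Single probes were not fitted with the block. Des had no value to test with floor values left out.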
